A study of Rattus norvegicus with 13 samples.

Results

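The comparison described here is the difference between the transcriptional effects of 2 forms of head trauma in rat frontal cortex. For each gene, the effect of rotational trauma (trauma minus its own sham group) was taken first, and the effect of percussion trauma (trauma minus its own sham group) was subtracted from it. A value above 0 means that the rotational effect was the more positive of the pair, and a value below 0 that the percussion effect was. All 13 arrays of the series entered, and a gene was included when its probe was well above background on all 13, which left 14959 of the 26239 genes on the array design.

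The animals were male Sprague–Dawley rats, and total RNA of the frontal cortex was taken 1 month after the operation. The groups were rotational sham (3 arrays), rotational trauma (3 arrays, head acceleration), percussion sham (4 arrays) and percussion trauma (3 arrays, lateral fluid percussion). Both sham groups had anaesthesia and the full surgery but no blow, so within each model anaesthesia and surgery are shared by sham and trauma. Whether the surgery was the same in the rotational and percussion models was not tested. Each sample was hybridised to its own 1-colour Agilent array. The labels name neither the age of the animals nor the side of the cortex, and they list the replicates as separate samples without naming animals, so the p-values measure the spread between these samples only. In bulk tissue, fewer cells of a type and less RNA per cell cannot be told apart.

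The layout of the slides bears on every value below. Rotational sham and percussion trauma lay in slide column 1, and rotational trauma and percussion sham lay in slide column 2. Trauma and sham therefore lay in opposite columns in the 2 models, and any effect of column that is shared by the slides enters the difference in full. Column and difference cannot be told apart in this design. Each model also had a slide of its own, and in any direct comparison of the sham groups the slide cannot be told apart from the model.

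Rotational injury is produced by rapid acceleration of the head and is known mainly for diffuse injury of axons, whereas lateral fluid percussion delivers a pulse of fluid onto the dura by way of a craniotomy and adds a focal lesion beneath it. Immediate early genes such as Arc and Fos are transcribed quickly and briefly after neuronal activity, and their messages decay fast. Glucocorticoid targets such as Sgk1 and Tsc22d3 follow circulating corticosterone. Notch signalling runs from the ligands Jag1 and Jag2 through Notch receptors and the DNA-binding protein Rbpj to the Hes and Hey repressors, and in the adult cortex it is active mainly in astrocytes and vessels.

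No gene passed an adjusted p of 0.05 for the difference (limma, Benjamini-Hochberg over all 14959 genes), so the share called was 0%. The smallest adjusted p was 0.0994. At an unadjusted p under 0.05 there were 1139 genes, where 748 are expected if no gene differs. Of these, 519 lay above 0 (3.47% of all genes) and 620 lay below 0 (4.14%). The split of these genes by direction depended on scaling: 45.6% lay above 0 with the upper quartile, 32.6% in the authors' deposited normalised table and 92.1% when the arrays were scaled on the spike-in controls. Spike-in scaling moved the median difference of all genes up by 0.23 on the log2 scale.

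**Figure D1:**
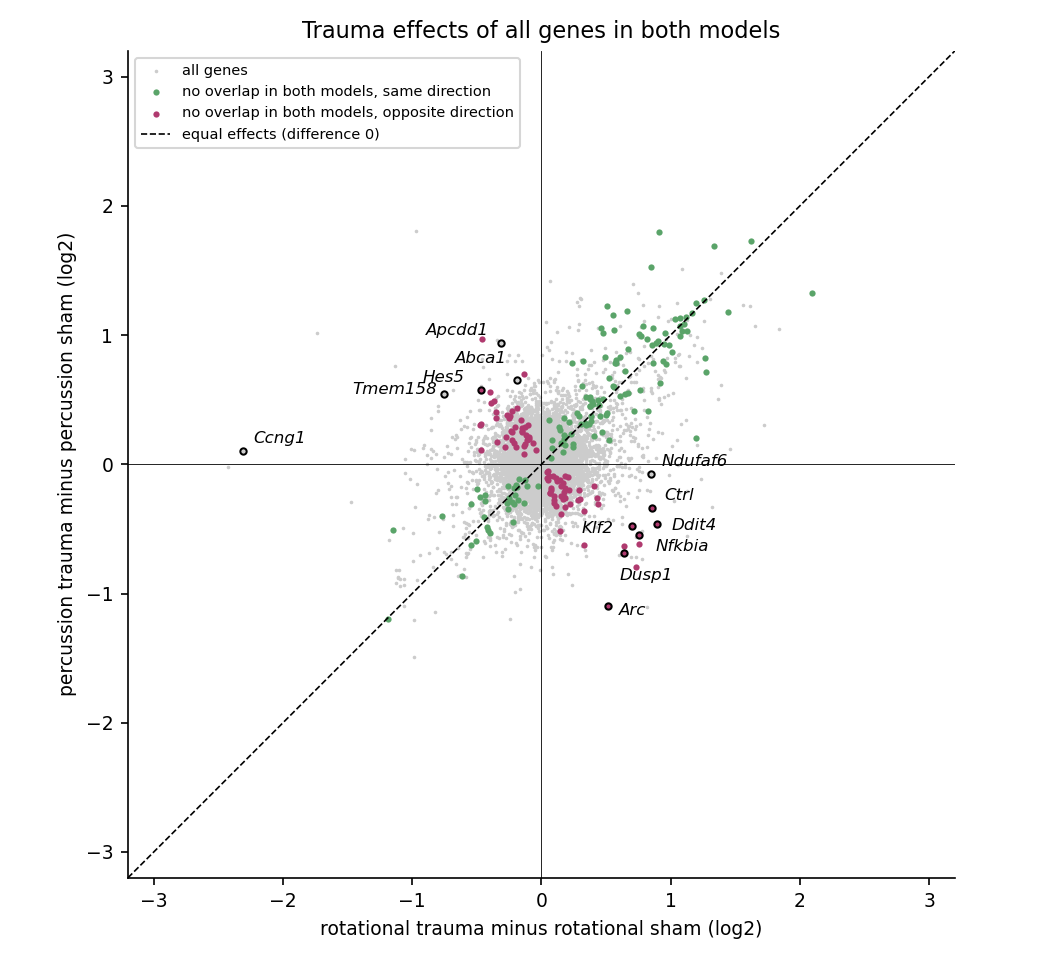
Effect of rotational trauma (x axis, trauma minus sham, log2) against effect of percussion trauma (y axis, log2) for 14959 genes, with 3 genes outside the axes at 3.2. Each grey point is a gene, coloured points are genes whose trauma and sham arrays did not overlap in either model, and black rings mark named genes of smallest p; the points for Arc, Dusp1 and Ddit4 lie to the lower right of the dashed line of equal effects, those for Hes5, Apcdd1 and Ccng1 to the upper left.

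Each effect on its own gave few calls. Rotational trauma against its sham gave 3 genes at an adjusted p under 0.05 and 938 at an unadjusted p under 0.05. Percussion trauma against its sham gave 0 and 1666 in the same limma fit. That 0 was 25 with slide row as a term, 3 with the replicate block, 3112 with no filter on dim probes, 5 without percussion trauma array 2, and 2 without rotational trauma array 2 or percussion trauma array 3. The 3 rotational genes were Ccng1, Cebpd and Ndufaf6, and the count was 0 without percussion sham array 2, percussion sham array 4 or percussion trauma array 2, each of which entered only through the estimate of spread. In 7679 of the 14959 genes the effects had opposite signs in the 2 models. The sham groups themselves stood apart: 3551 genes differed between percussion sham and rotational sham at an adjusted p under 0.05 (limma), 1781 of them higher in percussion sham.

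Because the genes with the clearest opposite effects included a negative regulator of NF-kB, an activity-induced phosphatase and a Notch effector, their proximal promoters are shown, chosen after their values were seen. The sequences are the 250 bases upstream of the transcription start from RefSeq (GRCr8), on the coding strand, at chr10:17184603-17184852 (plus strand) for Dusp1, chr5:170804327-170804576 (plus strand) for Hes5 and chr6:78597073-78597322 (minus strand) for Nfkbia. Capitals mark matches to 5 searched motifs on either strand: TGACGTCA and its part TGACG (the cyclic AMP response element), CACGTG (an E-box), TGGGAA (the core of the Rbpj motif, TTCCCA on the other strand) and a kB-type motif (GGGA, any 2 bases, then TTCC).
Dusp1: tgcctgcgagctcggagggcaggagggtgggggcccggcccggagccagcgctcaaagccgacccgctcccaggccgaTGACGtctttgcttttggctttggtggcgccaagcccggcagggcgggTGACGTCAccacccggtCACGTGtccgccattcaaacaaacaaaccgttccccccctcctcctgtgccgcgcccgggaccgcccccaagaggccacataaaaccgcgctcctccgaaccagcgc
Hes5: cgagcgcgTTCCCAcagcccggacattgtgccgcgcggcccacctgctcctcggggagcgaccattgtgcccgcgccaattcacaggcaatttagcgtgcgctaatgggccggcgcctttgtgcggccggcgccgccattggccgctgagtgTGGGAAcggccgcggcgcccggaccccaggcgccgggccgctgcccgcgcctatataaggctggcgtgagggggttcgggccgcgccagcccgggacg
Nfkbia: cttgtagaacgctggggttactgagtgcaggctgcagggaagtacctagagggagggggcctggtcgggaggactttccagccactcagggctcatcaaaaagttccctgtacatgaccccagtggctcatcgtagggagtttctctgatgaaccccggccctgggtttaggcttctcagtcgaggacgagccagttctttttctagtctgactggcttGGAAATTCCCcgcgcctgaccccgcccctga
The Dusp1 stretch holds 1 TGACG, 1 full TGACGTCA (in which TGACG reads on both strands) and 1 CACGTG. Hes5 has TGGGAA once on each strand, and Nfkbia has 1 kB-type motif on the other strand. Promoters were listed for 23 of the 29 genes named by p or by overlap. TGACGTCA was present in 2 of these 23 and in 1.59% of 33469 promoters of the same length, TGACG in 7 and 18.2%, TGGGAA in 6 and 22.1%, CACGTG in 4 and 5.59%, and the kB-type motif in 1 and 1.08%. A match describes the letters only.

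The 12 named genes with a difference above 0 included Arc, Dusp1, Ddit4, Klf2 and Nfkbia. All 12 had a positive rotational effect and a negative percussion effect, a direction largely fixed by choosing the genes on the difference. Each level below is the log2 processed signal minus the array's 75th percentile, so 0 is the upper quartile of that array. These levels are not set against each other between genes.

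Ddit4, a stress-induced inhibitor of the mTOR kinase complex (probe at chr20:27252567-27252626, rn4), had levels of 1.17, 1.59 and 1.38 in rotational sham and 2.14, 2.58 and 2.09 in rotational trauma. In percussion sham the levels were 2.45, 2.58, 2.68 and 2.82, and in percussion trauma 2.33, 2.34 and 1.83. All rotational trauma arrays were above all rotational sham arrays, and all percussion trauma arrays were below all percussion sham arrays. The rotational effect was 0.89 ± 0.17 (SE), the percussion effect -0.46 ± 0.16 and the difference 1.35 ± 0.23, with a 95% interval of 0.84 to 1.86 and an adjusted p of 0.149 (limma). A further Ddit4 probe gave 1.19.

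Arc, the activity-regulated cytoskeletal protein of dendrites (chr7:112772025-112772084, rn4), had the largest difference above 0 among the 24 named genes. Its levels were 0.82, 0.54 and 0.56 in rotational sham and 1.02, 1.39 and 1.06 in rotational trauma. They were 4.39, 4.21, 3.73 and 3.78 in percussion sham and 3.50, 2.60 and 2.68 in percussion trauma. The trauma and sham arrays did not overlap in either model, and every percussion array was above every rotational array. The difference was 1.62 ± 0.32 (95% interval 0.92 to 2.31, limma adjusted p 0.226), from a rotational effect of 0.52 and a percussion effect of -1.10. Between the sham groups the gap was 3.39, larger than either effect of trauma.

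Dusp1, a phosphatase that switches off MAP kinases (chr10:16944342-16944661, rn4), had levels of -2.93, -3.12 and -2.94 in rotational sham and -2.42, -2.26 and -2.39 in rotational trauma. Its percussion levels were -1.75, -1.89, -2.26 and -2.26 in sham and -2.63, -2.42 and -3.14 in trauma. Again neither model's groups overlapped. The difference was 1.33 ± 0.24 (95% interval 0.80 to 1.86, limma adjusted p 0.179).

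Klf2, a transcription factor of quiescent endothelium (chr16:17942544-17942603, rn4), read -3.24, -3.78 and -3.51 in rotational sham against -2.69, -2.83 and -2.91 in rotational trauma. In the percussion model it read -2.07, -2.30, -2.33 and -2.38 in sham and -2.47, -2.82 and -2.97 in trauma, again without overlap in either model. The difference was 1.18 ± 0.21 (95% interval 0.73 to 1.63, limma adjusted p 0.149).

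Nfkbia, which encodes the inhibitor that holds NF-kB in the cytoplasm (chr6:75730438-75730497, rn4), read 0.04, 0.63 and 0.54 in rotational sham and 1.13, 1.05 and 1.28 in rotational trauma. Percussion sham read 0.50, 0.47, 0.56 and 1.18, and percussion trauma 0.23, 0.30 and -0.13. The groups did not overlap in either model, although the fourth percussion sham array stood well above the other three. The difference was 1.30 ± 0.28 (95% interval 0.70 to 1.90, limma adjusted p 0.267).

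Ndufaf6, an assembly factor of respiratory complex I (chr5:24893589-24893648, rn4), followed another pattern, with an effect in the rotational model alone past the threshold. It read 0.41, 0.47 and 0.72 in rotational sham, 1.26, 1.36 and 1.53 in rotational trauma, 0.27, 0.49, 0.48 and 0.44 in percussion sham and 0.24, 0.25 and 0.54 in percussion trauma. Only the rotational trauma arrays stood apart. Ndufaf6 rose by 0.85 ± 0.11 after rotational trauma (limma adjusted p 0.0337), and its percussion effect was -0.08 ± 0.11 (limma adjusted p 0.827). The difference of 0.93 ± 0.15 did not pass (95% interval 0.59 to 1.26, limma adjusted p 0.134).

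**Figure D2:**
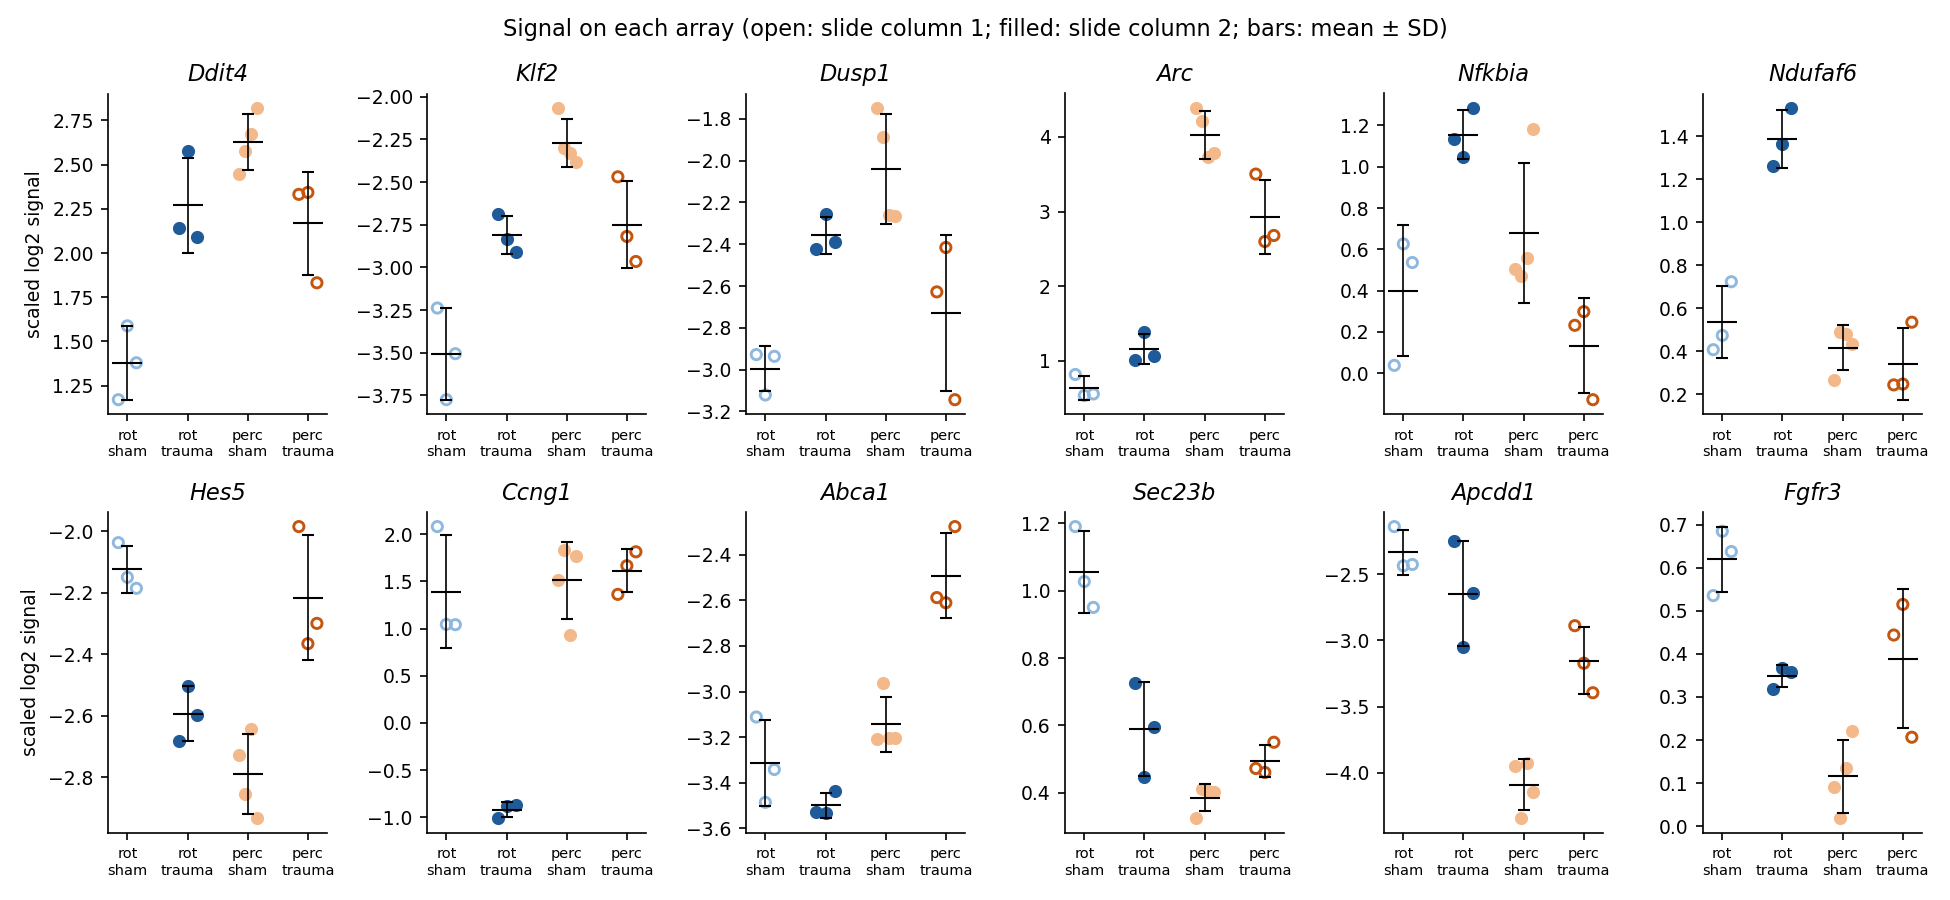
Scaled log2 signal (y axis) on each of the 13 arrays for 12 named genes, by group (x axis); points are arrays, open for slide column 1 and filled for slide column 2, and bars are the group mean ± SD. In Ddit4, Klf2, Dusp1, Arc and Nfkbia the filled points lie above the open points of the same model, in Hes5 and Fgfr3 below them or nearly so, and in Ccng1 only the rotational trauma arrays stand apart, near -0.92.

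The other 6 genes above 0 had differences between 0.46 and 1.19. Ctrl, a chymotrypsin-like protease, had the largest of these (1.19 ± 0.20, limma adjusted p 0.134), with -3.19, -2.72 and -2.86 in rotational sham, -1.98, -2.13 and -2.11 in rotational trauma, -1.62, -2.16, -2.10 and -2.03 in percussion sham and -2.28, -2.26 and -2.41 in percussion trauma. Its groups did not overlap in either model. Pank1, the first enzyme of coenzyme A synthesis, had a difference of 0.73, Tcfl5, a helix-loop-helix transcription factor, 0.74, Serinc2, a membrane protein of the serine incorporator family, 0.75, and Yipf3, a Golgi membrane protein, 0.46. Slc15a2, a peptide transporter, differed by 0.77 with a percussion effect of only -0.03.

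Of the 12 named genes with a difference below 0, the one of smallest p was Hes5, a repressor transcribed in response to Notch (chr5:171764166-171764225, rn4). Hes5 read -2.04, -2.15 and -2.19 in rotational sham and -2.68, -2.50 and -2.60 in rotational trauma. It read -2.73, -2.85, -2.64 and -2.93 in percussion sham and -1.99, -2.37 and -2.30 in percussion trauma. The 2 column 1 groups thus lay together at the top and the 2 column 2 groups together at the bottom, with no overlap between the columns. The rotational effect was -0.47 ± 0.11 and the percussion effect 0.57 ± 0.10. The difference of -1.04 ± 0.15 (95% interval -1.36 to -0.72) had an adjusted p of 0.0994 (limma).

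Ccng1, cyclin G1, a direct target of p53 (chr10:25778638-25778912, rn4), had the largest difference of the 24 named genes. Rotational sham read 2.08, 1.04 and 1.04, and rotational trauma -1.01, -0.88 and -0.87. Percussion sham read 1.52, 1.83, 0.94 and 1.77, and percussion trauma 1.36, 1.67 and 1.81. The 3 rotational trauma arrays spread by an SD of 0.08 and lay far below the other 10, which overlapped. Ccng1 fell by 2.31 ± 0.28 after rotational trauma (limma adjusted p 0.0337), whereas the percussion effect was 0.10 ± 0.26 (limma adjusted p 0.910). The difference was -2.41 ± 0.38 (95% interval -3.24 to -1.58) with an adjusted p of 0.134 (limma). It was -2.18 with an adjusted p of 0.0400 (limma) when scaled on the spike-ins, an alternative chosen after seeing the data. The exact permutation test within models gave Ccng1 an unadjusted two-sided p of 0.0386, where the smallest possible is 0.00143. Only 1 Ccng1 probe passed the filter.

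No other p53 target on the list of 14 had a difference at an unadjusted p under 0.05. Cdkn1a, the p53-induced cell cycle inhibitor, had a difference of -0.20, Mdm2, the ubiquitin ligase that degrades p53, 0.15, and Bax, a mediator of apoptosis, 0.13. The list's median difference was 0.04.

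Abca1, the cholesterol exporter (chr5:70493613-70493672, rn4), had its effect mainly in the percussion model. It read -3.21, -2.96, -3.20 and -3.20 in percussion sham and -2.59, -2.61 and -2.28 in percussion trauma, without overlap. Rotational sham read -3.11, -3.49 and -3.34 and overlapped rotational trauma at -3.53, -3.53 and -3.43. The difference was -0.84 ± 0.16 (95% interval -1.18 to -0.49, limma adjusted p 0.189).

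Apcdd1, a membrane inhibitor of Wnt signalling (chr18:59091119-59091178, rn4), also had the larger effect after percussion, 0.94 against -0.31. It read -3.95, -4.34, -3.93 and -4.14 in percussion sham and -2.89, -3.17 and -3.40 in percussion trauma. Rotational sham read -2.14, -2.44 and -2.43 and overlapped rotational trauma at -2.25, -3.05 and -2.64. The difference was -1.25 ± 0.26 (95% interval -1.82 to -0.68, limma adjusted p 0.267).

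Fgfr3, a fibroblast growth factor receptor of astrocytes (chr14:82683212-82683271, rn4), read 0.54, 0.68 and 0.64 in rotational sham and 0.32, 0.37 and 0.36 in rotational trauma. It read 0.09, 0.02, 0.13 and 0.22 in percussion sham and 0.44, 0.51 and 0.21 in percussion trauma, where 1 trauma array fell among the sham arrays. The difference was -0.54 ± 0.12 (limma adjusted p 0.332), and a further Fgfr3 probe gave -0.72.

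The remaining 7 genes below 0 had differences between -1.30 and -0.42. They were Sec23b, a coat protein of vesicles leaving the endoplasmic reticulum (-0.58), Exoc4, a subunit of the exocyst (-0.49), Spryd4 (-0.61), Nup188, a nuclear pore protein (-0.54), Tmem158 (-1.30), Klhl30 (-0.62) and Tdg, a DNA glycosylase (-0.42). Nup188 was the exception to opposite signs among the 24, with 0.07 after rotational trauma and 0.61 after percussion. Of the 12 genes below 0, 6 came from the dimmest of 5 equal classes of genes by mean signal, against 2 of the 12 above 0.

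**Figure D3:**
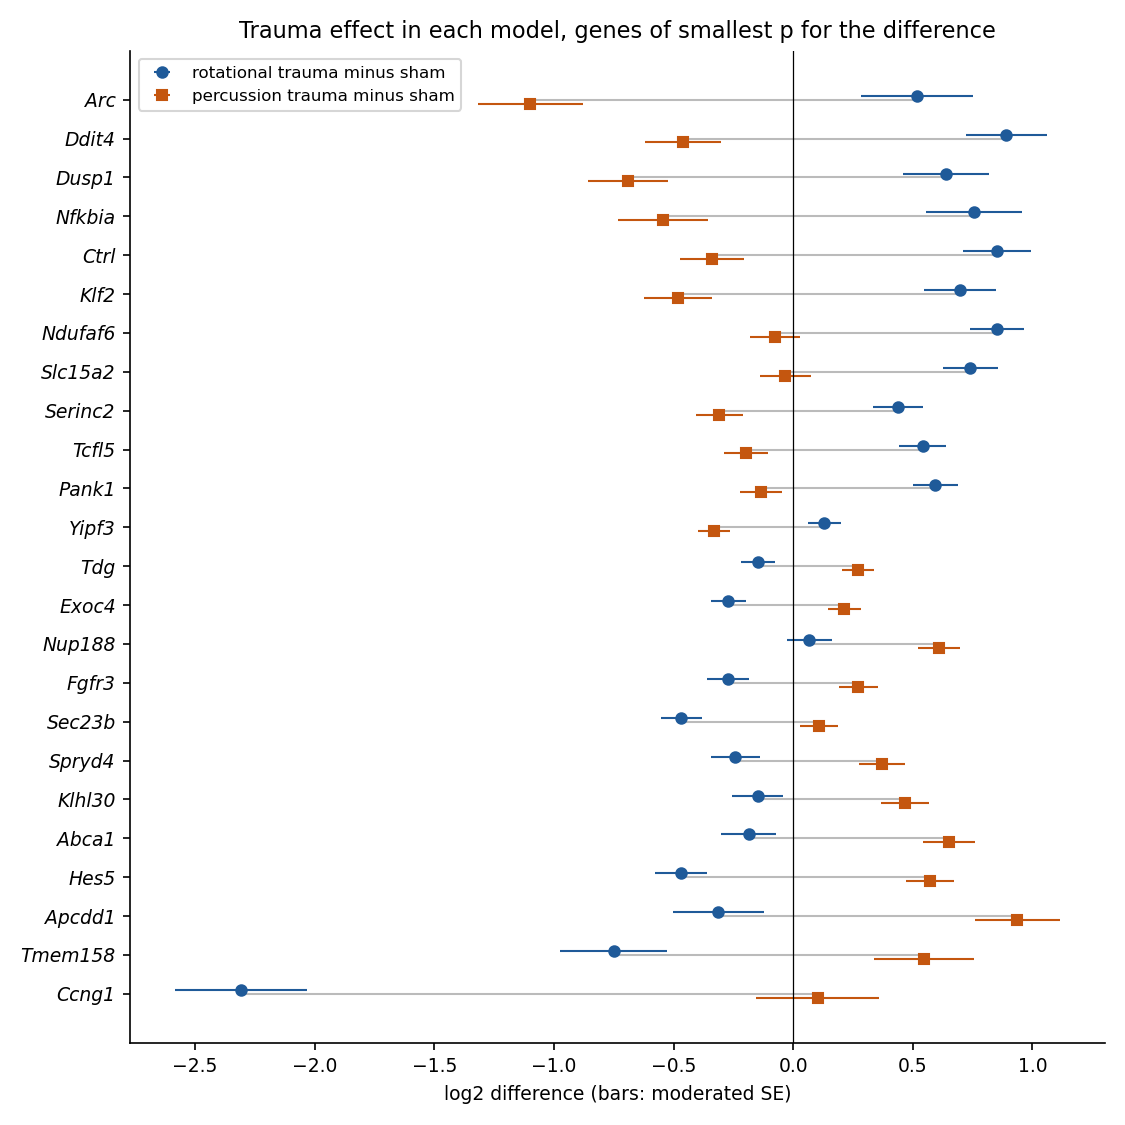
Trauma minus sham (x axis, log2) in the rotational model (circles) and the percussion model (squares) for the 24 named genes (y axis), with bars of 1 moderated SE. The genes were chosen on the difference, and 23 of the 24 have effects of opposite sign; Ccng1, Ndufaf6 and Slc15a2 have the percussion effects nearest to 0.

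The sham groups did not overlap in 19 of the 24 genes, against 41.1% of all 14959 genes. Percussion sham was above rotational sham in 11 of the 12 genes above 0 and below it in 9 of the 12 below 0, while it was above in 45.6% of all genes. The difference itself contains percussion sham minus rotational sham, so choosing genes on it largely fixes both the overlap and this direction, and nothing is read from these counts.

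Genes that moved apart without overlap in both models were few. In 49 genes (0.328%) rotational trauma was above its sham and percussion trauma below its sham on every array, and in 41 genes (0.274%) the reverse held. For comparison, 102 genes (0.682%) were higher in trauma without overlap in both models and 32 (0.214%) were lower in both. Those of largest difference with the rotational arrays higher were Arc, Apold1 (1.53), Fmo2 (1.37), Ddit4 and Dusp1. Apold1 is an early response gene of endothelium, and Fmo2 a flavin monooxygenase. With the rotational arrays lower they were Hes5, Zfp764 (-0.83), Tanc2, a postsynaptic scaffold protein (-0.71), Spryd4 and Washc5, a subunit of the WASH complex on endosomes (-0.61).

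Apold1 read -2.46, -2.16 and -2.24 in rotational sham and -1.13, -1.50 and -2.03 in rotational trauma, then -1.89, -2.14, -2.83 and -2.76 in percussion sham and -3.12, -3.03 and -3.45 in percussion trauma. Fmo2 read -4.48, -4.24 and -4.30, then -4.13, -3.14 and -3.50 in the rotational model, and -2.19, -2.53, -1.84 and -1.87, then -2.70, -2.68 and -2.78 in the percussion model, sham before trauma. Both genes spread widely within rotational trauma, and their adjusted p values were 0.401 and 0.334 (limma).

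Gene lists are described by their counts and their median difference, beside a median of 0.01 and a share of 53.3% above 0 over all 14959 genes. No list member passed the adjusted threshold for the difference. Listed members outside the 14959 genes enter neither the counts nor the medians. They included 8 of 17 cytokine and NF-kB genes, 7 of 15 reactive astrocyte genes and 5 of 11 MHC class II and border macrophage genes. Complement lost 5 of 13, the Notch pathway 5 of 19 and immediate early genes 3 of 15. Choroid plexus lost 6 of 10 in the same way, and red blood cells 5 of 10. Medians with spike-in scaling are given relative to the shift of all genes by that scaling.

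Immediate early genes lay above 0 in 9 of 12, with a median of 0.42 (0.41 with spike-in scaling). Arc, Dusp1 and Btg2 had an unadjusted p under 0.05. In the percussion model all 12 effects were below 0 with a median of -0.58, and in the rotational model 4 of 12 were above 0 with a median of -0.06. Junb, a partner of Fos, read 3.96, 3.78, 3.28 and 3.07 in percussion sham and 3.31, 2.68 and 2.58 in percussion trauma, with 1.82, 1.83 and 1.95 in rotational sham and 1.67, 2.22 and 1.55 in rotational trauma. Fos itself had a difference of 0.26 and read -0.29, -0.50, -1.25 and -1.62 in percussion sham against -1.42, -1.61 and -1.87 in percussion trauma. In 11 of the 12 genes percussion sham was above rotational sham. Without the first percussion sham array the median was 0.22.

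Glucocorticoid-responsive genes were above 0 in 10 of 11, with a median of 0.22. Sgk1, Tsc22d3, Errfi1 and Klf9 had an unadjusted p under 0.05. Fkbp5, the first gene of the list, did not (difference 0.22, limma unadjusted p 0.224). Its effects were 0.07 after rotational trauma and -0.15 after percussion, and its trauma and sham arrays overlapped in both models. Sgk1, a kinase induced by corticosteroids, read -0.41, -0.45 and -0.20 in rotational sham, 0.27, 0.59 and 0.60 in rotational trauma, 0.32, 0.55, 0.66 and 0.57 in percussion sham and 0.33, 0.72 and -0.11 in percussion trauma. Every rotational sham array stood below every array of the other 3 groups, and trauma and sham overlapped in the percussion model. The Sgk1 difference was 1.05 ± 0.24 (limma adjusted p 0.377), and those of Tsc22d3, Errfi1 and Klf9 were 0.69, 0.63 and 0.51. Without the third percussion sham array the median of the list was 0.07.

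Cytokine and NF-kB genes had a median of 0.22 over 9 genes, 4 with an unadjusted p under 0.05 above 0 (Nfkbia, Cebpd, Cebpb and Il33) and 1 below (Tnfrsf1a, the main receptor of tumour necrosis factor, -0.67). Cebpd, which regulates acute phase genes, read 0.10, 0.29 and 0.14 in rotational sham and 1.10, 0.80 and 0.88 in rotational trauma. It rose by 0.75 ± 0.10 after rotational trauma (limma adjusted p 0.0337), with a percussion effect of 0.14 (limma adjusted p 0.573) from 0.56, 0.46, 0.41 and 0.43 in sham to 0.76, 0.47 and 0.60 in trauma. The Cebpd difference was 0.60 ± 0.13 (limma adjusted p 0.334). The median of the list was 0.04 with normexp background correction and 0.09 without the third rotational trauma array. Tnf, Il1a, Ccl2 and Ccl3 were outside the filter, so the median does not describe them. Tnf read -3.25, -4.53 and -3.66 in rotational sham and -4.11, -5.71 and -4.23 in rotational trauma. Percussion trauma read -2.94, -3.39 and -3.26, and percussion sham lay between -4.01 and -3.39. Tnf tended lower after rotational trauma and higher after percussion, opposite to the list median, with overlap in both models. It was well above background on 12 arrays, and the dim reading is a bound.

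Myelin genes were above 0 in 13 of 14, with a median of 0.45 (0.43 with spike-in scaling), made up of 0.38 after rotational trauma and -0.07 after percussion. Mag, an adhesion protein of the inner myelin wrap, read 3.37, 2.86 and 3.53 in rotational sham, 3.69, 3.58 and 3.83 in rotational trauma, 3.73, 3.80, 3.90 and 3.61 in percussion sham and 3.44, 3.67 and 3.43 in percussion trauma. Its difference was 0.69 ± 0.21 (limma adjusted p 0.487), and that of Mog, a protein of the outer myelin surface, was 0.69 ± 0.24. Rotational sham array 2 was the lowest of all 13 in both genes, and without it the median of the list was 0.17. Mbp, which holds the cytoplasmic faces of compact myelin together, had a difference of -0.10. Oligodendrocyte precursor genes had a median of 0.25 over 8, with Olig1 (0.42) and Olig2 (0.48) above 0 and Gpr17 (-0.43) below 0 at an unadjusted p under 0.05. Their median was 0.12 without the same array.

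That array differed from the others of its group in another respect. Genes of the striatum, which lies beneath the frontal cortex, had mean centred levels of 1.26, -0.18 and 0.95 in the 3 rotational sham arrays, between -0.19 and 0.35 in rotational trauma, and between -0.52 and -0.23 in all percussion arrays. The striatal list was above 0 in 1 of 10 for the difference, with a median of -0.29, and none of its genes had an unadjusted p under 0.05. The dopamine receptor Drd2 had -0.90 and the adenosine receptor Adora2a -0.95. The median was -0.62 without rotational sham array 2 and -0.06 without rotational sham array 1. The part of striatal tissue in the myelin and other values was not tested.

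MHC class II genes and markers of macrophages at the borders of the brain had the lowest median, -0.93 over 6 genes (-0.94 with spike-in scaling). Of the 6, 5 were below 0 and the other had 0.71. Cd74, the invariant chain of class II, read -0.20, -0.04 and -0.42 in rotational sham, 0.60, -0.35 and -0.02 in rotational trauma, -0.52, -0.70, -1.25 and -1.07 in percussion sham and 1.22, 0.06 and -0.06 in percussion trauma. RT1-Bb, a class II beta chain, read -1.68, -1.58 and -1.94, then -1.25, -1.93 and -1.83 in the rotational model and -3.20, -2.78, -2.38 and -3.77, then -1.17, -1.49 and -2.18 in the percussion model, sham before trauma. Both overlapped between trauma and sham in the rotational model only. Their differences were -0.99 ± 0.45 and -1.36 ± 0.45, with adjusted p values of 0.651 and 0.560 (limma). Percussion sham was below rotational sham in all 6 genes of the list, and without the first percussion trauma array the median was -0.49. The RT1 genes belong to a family of near-identical copies, and cross-hybridisation among them was not tested. The border macrophage markers Cd163 and Mrc1 were outside the filter, so the median does not describe them. Cd163 read -4.29, -5.32 and -4.79 in rotational sham and -3.38, -4.27 and -3.17 in rotational trauma. It read -4.92, -5.11, -5.25 and -5.37 in percussion sham, where it was dim and these are bounds, and -3.33, -3.89 and -4.26 in percussion trauma. Cd163 was thus higher in trauma in both models.

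Reactive astrocyte genes were above 0 in 2 of 8, with a median of -0.14 that was 0.11 without the first percussion trauma array. Gfap, the intermediate filament of reactive astrocytes, accounted for the lowest value. It read 0.02, 0.54 and 0.17 in rotational sham, 0.58, -0.76 and -0.11 in rotational trauma, -0.26, -0.12, -0.72 and 0.32 in percussion sham and 0.38, 0.89 and 1.03 in percussion trauma. Percussion trauma was above percussion sham on every array, and the rotational groups overlapped. The difference was -1.30 ± 0.44 with an adjusted p of 0.562 (limma). Vim, another filament protein, had positive effects in both models, 0.86 and 1.06, and so did the copper carrier Cp, 1.03 and 1.12.

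The complement list, with a median of -0.22 over 8 genes, had positive median effects in both models (0.48 rotational, 0.78 percussion), and its median was -0.03 without the first percussion trauma array. Meningeal and matrix genes had positive effects in both models. All 16 were above 0 in each model, with medians of 0.96 and 1.08, and the median difference was 0.00 with 8 on each side. It was -0.25 without rotational sham array 2 and 0.26 without the first percussion trauma array. Col1a1, a chain of fibrillar collagen, had 0.91 and 1.79, and Ogn, a small matrix proteoglycan, 2.10 and 1.33, in the rotational and percussion models.

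Interferon response genes were above 0 in 13 of 18, with a median of 0.15. Ifit3 (0.98), Irf9 (0.48) and Stat2 (0.26), the last of which forms with Irf9 the complex that carries the type I interferon signal, had an unadjusted p under 0.05. The median was -0.06 without the second percussion trauma array. Ifit3 read -4.72, -4.08 and -4.18 in rotational sham and -3.47, -3.91 and -3.63 in rotational trauma, which did not overlap, and -4.14, -4.52, -4.41 and -3.80 in percussion sham and -4.30, -4.77 and -4.54 in percussion trauma, which did.

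For the Notch pathway, 4 of 14 genes were above 0 and the median was -0.09 (-0.10 with spike-in scaling). Hes5 and Hey1 (-0.35), both target repressors, had an unadjusted p under 0.05. The receptors Notch1 (0.03), Notch3 (0.13) and Notch4 (-0.09), the ligands Jag1 (-0.27) and Jag2 (-0.08) and the effector Rbpj (-0.23) did not. Heyl, a further target, lay on the other side at 0.35. Hes1, the close relative of Hes5, was not well above background on 2 of the 3 rotational trauma arrays and so was outside the 14959 genes. It read -2.63, -2.77 and -2.89 in rotational sham and -5.63, -5.18 and -3.92 in rotational trauma, against -2.33, -1.92, -1.87 and -2.07 in percussion sham and -2.13, -2.26 and -2.37 in percussion trauma. On the arrays where it is dim these readings are bounds.

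**Figure D4:**
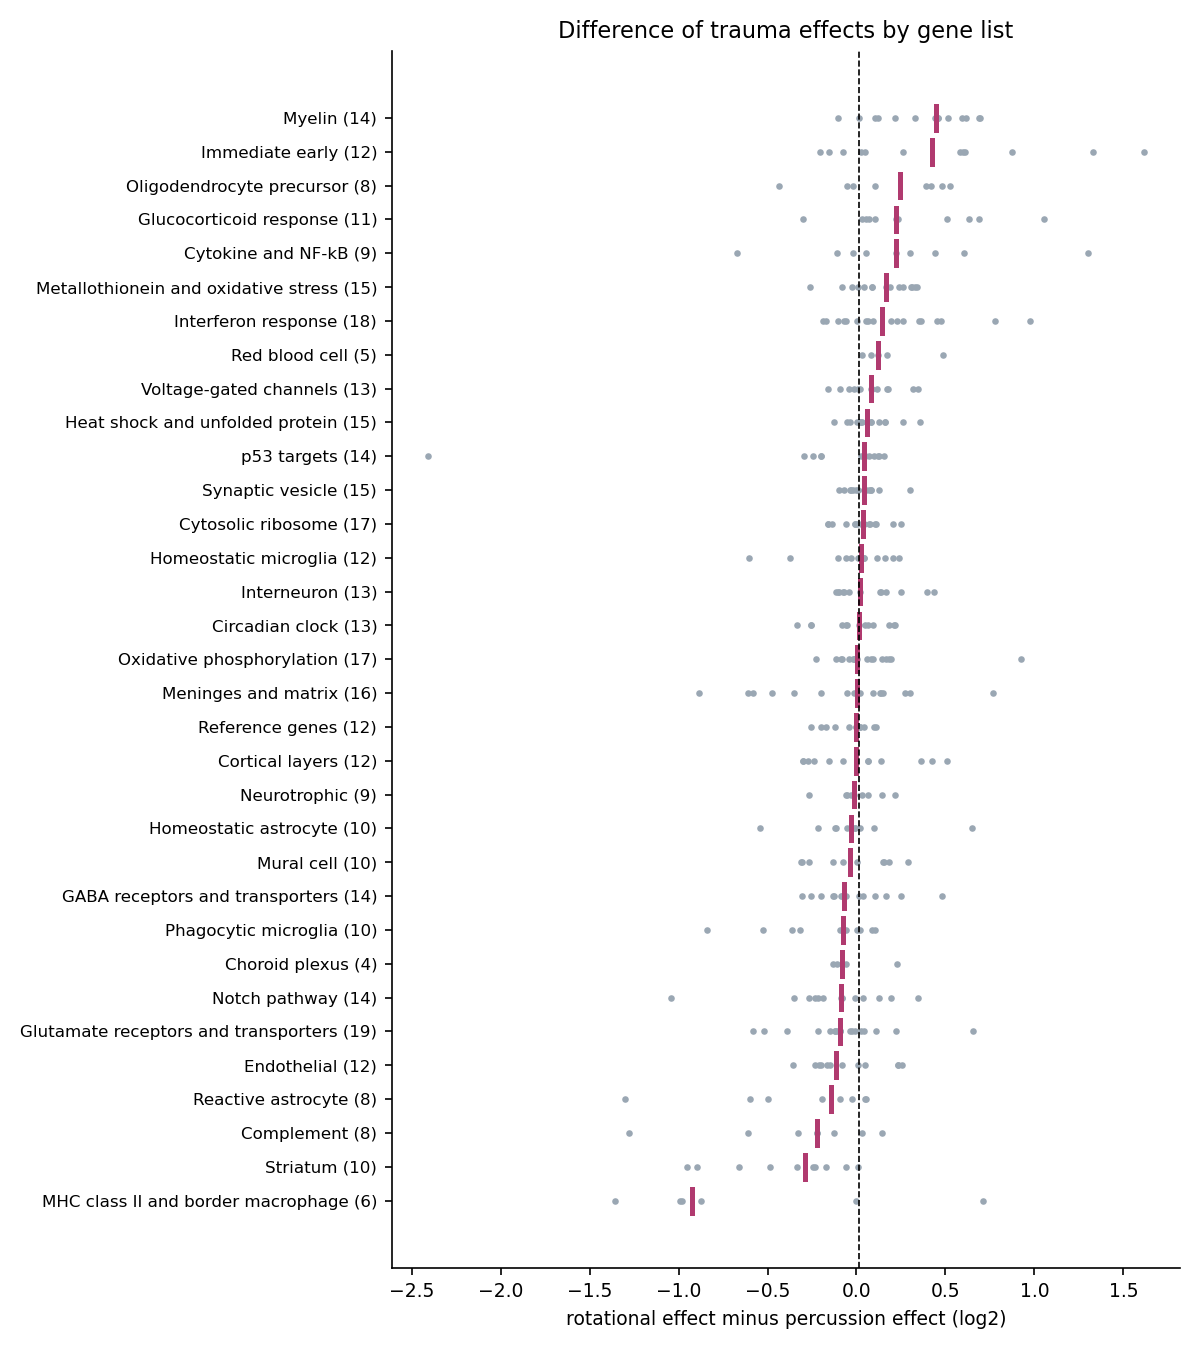
Difference of trauma effects (x axis, rotational minus percussion, log2) for the members of each of 33 gene lists (y axis, number measured in brackets); grey points are genes, coloured bars the list median and the dashed line the median of all genes, 0.01. Myelin (0.45) and immediate early genes (0.42) have the highest medians and the list of MHC class II and border macrophage genes (-0.93) the lowest.

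Most of the other lists lay close to the median of all genes. The lists of homeostatic astrocytes (-0.03, with Gjb6 at 0.65 and Fgfr3 at -0.54), homeostatic microglia (0.02), phagocytic microglia (-0.08), mural cells (-0.03), endothelium (-0.11) and choroid plexus (-0.08) had medians within 0.15 of 0. So did those of cortical layers (-0.01), interneurons (0.02), glutamate receptors and transporters (-0.09), GABA receptors and transporters (-0.07), synaptic vesicles (0.04), voltage-gated channels (0.08) and neurotrophic factors (-0.01). Genes of red blood cells (0.12), oxidative phosphorylation (0.00), cytosolic ribosomes (0.04), heat shock (0.06), the circadian clock (0.02) and reference genes (-0.00) did likewise, and metallothionein and oxidative stress genes had 0.16. Of the 33 lists, 20 changed the sign of their median when 1 array was left out, and 13 changed it under spike-in scaling before the shift of all genes was taken off.

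Among glutamate receptors, the NMDA receptor subunits Grin2b (-0.52) and Grin2d (-0.58) lay below 0 at an unadjusted p under 0.05, and the vesicular transporter Slc17a6 (0.66) above 0. The obligatory NMDA subunit Grin1 had -0.12 and the AMPA subunits Gria1 and Gria2 had -0.12 and 0.03.

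Several technical measures moved with the difference. The share of spots well above background was 72.7% to 74.1% in slide column 1 and 67.0% to 72.5% in column 2, and its difference of effects was -8.95 percentage points (exact permutation test, two-sided p 0.00143). The mean signal of negative control spots was 56.6 to 61.7 in column 1 and 61.2 to 68.2 in column 2, a difference of 10.3 units of signal (exact permutation test, two-sided p 0.00429). Spike-in transcripts are added to each sample and carry no rat RNA. The 8 that were detected had unscaled differences from -0.28 to -0.01, whereas the 2 that were not above background had 1.70 and 1.07.

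The difference also followed the signal level of the gene. Its median was -0.08 in the dimmest of the 5 classes and 0.06 in the brightest, and the share with an unadjusted p under 0.05 was 10.9% in the dimmest and 5.55% in the brightest. In the dimmest class 2.07% of genes were above 0 and 8.86% below 0 at that p, and in the brightest 4.38% and 1.17%. Hes5, Klf2, Dusp1 and Abca1 lay at or below -1.75 on all 13 arrays, while Arc and Ddit4 lay above 0.50 on all 13. The part of slide column or background in any gene's value was not tested beyond this.

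**Figure D5:**
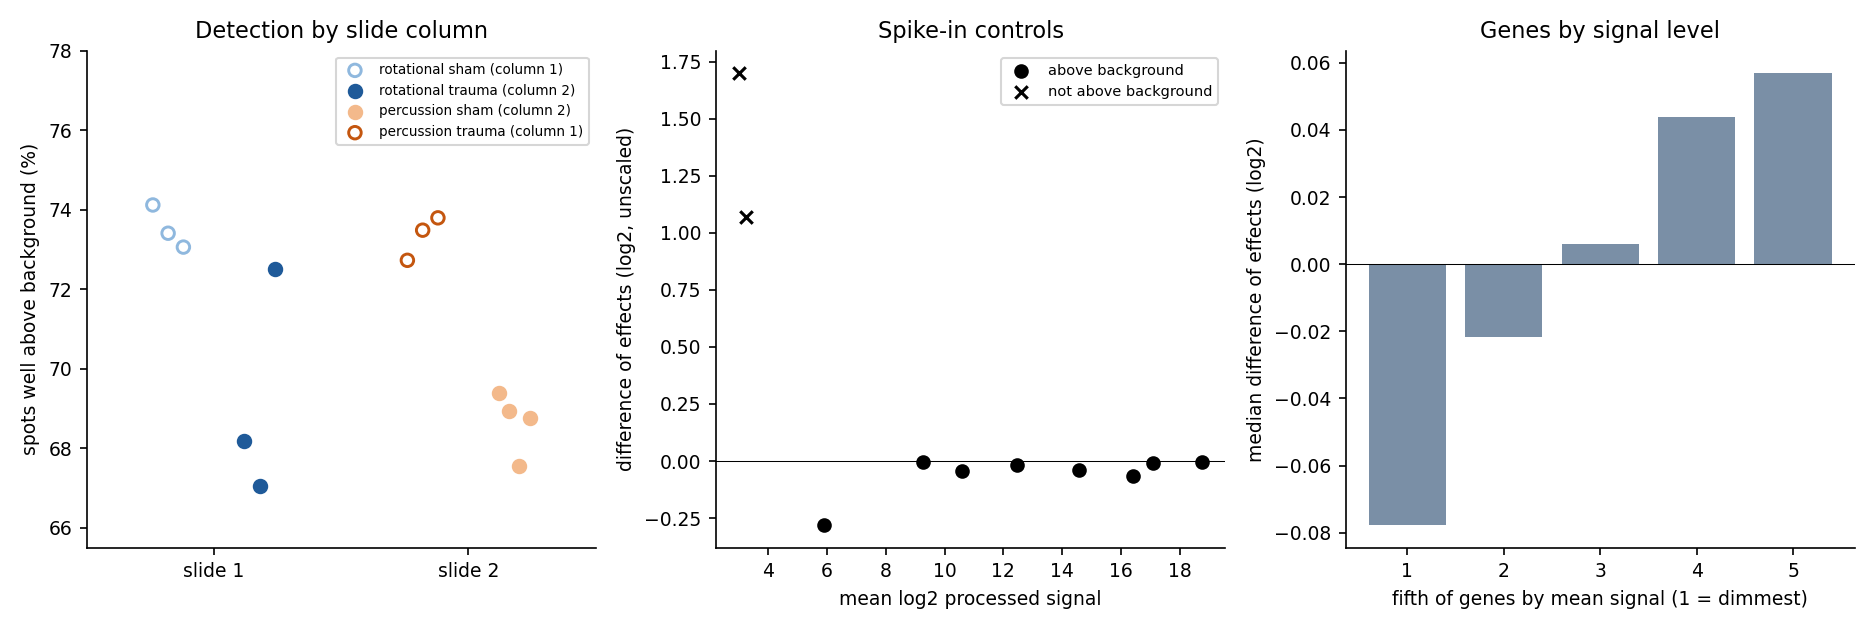
Left, share of spots well above background (y axis, percent) for each array by slide (x axis), open for slide column 1 and filled for column 2; middle, difference of effects (y axis, unscaled log2) against mean log2 signal (x axis) for 10 spike-ins; right, median difference of effects (y axis, log2) by class of mean signal (x axis, 5 equal classes of genes). Column 1 arrays lie between 72.7% and 74.1%, the 8 detected spike-ins between -0.28 and -0.01, and the medians run from -0.08 in the dimmest class to 0.06 in the brightest.

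Of 35 markers of brain and blood cell types with a probe, 32 were well above background on all 13 arrays. That count leaves out T cell and liver markers. Of the liver markers, listed as absent controls, Alb was well above background on all 13 arrays and Apoa2 on 0. Correlations between arrays of a group were 0.991 to 0.998. The number of arrays limits the precision of every difference: its median SE over all genes was 0.15 on the log2 scale.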

How the data were processed

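Per the file headers, the authors scanned 13 1-colour arrays and extracted spots with Agilent Feature Extraction 10.5.1.1; the deposited files give each spot's processed signal as a background-subtracted intensity, with probe positions on rn4. The authors' deposited value table holds log2 values already normalised (its 13 column medians are all 8.15; how it was made is not given in the sources used here), which served as an alternative. Control spots (4259 of 62976) were left out and spots of a probe averaged, giving 30367 probes. Each log2 intensity was lowered by the array's 75th percentile. The 17246 probes well above background on all 13 arrays were kept, with the brightest probe for each gene (14959 genes, 3753 with provisional names). Names came from a RefSeq table of GRCr8: an accession named 18394 probes, a symbol 2467 and a synonym 538, while 8968 stayed with the name in the file.

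A mean per group was fitted with limma 3.58.1 in R 4.3.3 (9 residual and 3.04 prior degrees of freedom), with two-sided p-values adjusted by Benjamini-Hochberg over all genes. The fit was tested on simulated data. Replicates have the labels' numbers, which were not used to pair arrays. The members, lists and alternatives were chosen with earlier results of these data known. Named were the 12 genes of smallest p in each direction, passing over provisional names (1 above 0 and 10 below 0), up to 5 genes per direction whose trauma and sham arrays moved oppositely without overlap, and list members: the first 3 measured of each list, of which the text gives a part. Other list members were named after their values were seen. Alternatives covered background correction, normalisation, filters, probe choice, slide row, replicate block, variance options and leaving out each array.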

Additional observations from a re-analysis of the deposited data

Results flagged for a closer look

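The group of 4 percussion sham arrays was examined for single arrays far from the rest in 157 values, 124 genes and 33 list means, and 14 stood apart by Dixon's criterion, which chance meets in about 1 of 20 groups. The array 1 values were 1.06 for Serinc2, 0.32 for Sec23b, 4.13 for Aqp4 and -0.17 for the mean centred level of homeostatic astrocyte genes. On array 2 they were -2.96 for Abca1 and 0.050 for the cytosolic ribosome list. On array 3 they were 0.72 for Gria1, 2.12 for Aif1, -3.09 for Cd68 and -0.00561 for the interneuron list. On array 4 they were 1.18 for Nfkbia, -3.58 for Zfp764, -1.60 for Tanc2 and -0.50 for Irf7. The arrays shared these values as 4, 2, 4 and 4.

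Measures outside the genes differed between the models under the same contrast by an exact permutation test. The undetected spike-ins E1A_r60_3 and E1A_r60_a104 had differences of 1.70 (two-sided p 0.00143) and 1.07 (p 0.0129) in unscaled log2 signal. The share of spots well above background differed by -8.95 percentage points (p 0.00143), and the mean signal of negative controls by 10.3 units (p 0.00429). Slide column cannot be told apart from these differences.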

How the results depend on the processing

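All 29 genes named by p or by overlap kept their sign under each of 26 alternatives in which they were measured. Choosing these genes on the same arrays largely fixes that outcome, and nothing is read from it. Slide column and difference cannot be told apart under any of the alternatives. The count of genes at an adjusted p under 0.05 (limma) was 0 in the reported fit and under most alternatives. It was 3897 with no filter on dim probes, where 5424 genes lay above 0 at an unadjusted p under 0.05 (85.9% of those at that p). With array weights it was 1, beside 1385 genes above and 1180 below 0, and rotational sham array 3 had a weight of 31.1. With scaling on the spike-ins it was 1 (Ccng1), beside 35 genes below 0. Leaving out the dimmest of 5 equal classes of genes, so that fewer were tested, left 386 below 0. Leaving out 1 array gave 0 to 7 adjusted calls (6 without rotational trauma array 1 and 7 without array 3), 356 to 1105 genes above 0 and 470 to 1128 below 0, the highest of both without percussion trauma array 3. The spike-in scaling and the dimmest-class filter were chosen after seeing the data; other causes were not tested. Whether replicate numbers pair the arrays is not known. Over 18 same-numbered pairs the correlation of deviations was -0.09 to 0.35, with a median of 0.04 and 5 over 0.1. Over 45 differently numbered pairs it was -0.26 to 0.24, with a median of -0.05 and 5 over 0.1. The replicate block gave 0 adjusted calls, 452 genes above 0 and 600 below 0 for the difference. For the rotational effect alone, adjusted calls numbered 3 in the reported fit, 41 with the replicate block, 6 with slide row, 899 with array weights, 1861 with no filter, 1 in the deposited table and 0 to 10 with 1 array left out. Of the list medians, 80 moved by more than the spread between arrays, over all lists and alternatives, 26 of them with spike-in scaling. Signal near background limits the dim genes.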

Other observations

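The lowest differences of all belonged to probes without a gene name, chosen after their values were seen. A_64_P094980 (chrX:93594337-93594396, rn4) had a difference of -4.22 ± 1.89 (SE, limma adjusted p 0.651). It read 4.74, 5.42 and 5.25 in rotational sham, -1.43, -1.50 and 5.50 in rotational trauma, 1.95, 3.15, 3.05 and 2.98 in percussion sham and 2.91, 2.00 and 3.26 in percussion trauma. A_64_P084268 (chrX:93201383-93201442) and A_64_P126595 (chr6:145823363-145823422) had -3.57 and -3.56 and were low on the same pair of rotational trauma arrays, 1 and 2, at -0.02 and -0.09 and at -0.95 and -1.03. The third array of that group read above all rotational sham arrays in all 3 probes.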
